A study of Mus musculus with 24 samples.

Results

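The genes described here are 10 genes that mark macrophages of the mouse embryo: C1qa, C1qb, C1qc, Csf1r, Mrc1, Fcer1g, Cx3cr1, Tyrobp, Adgre1 and Ctsc. They were chosen by name from the 55536 genes of the deposited table, with earlier results of these data known. All 10 were found there, and their values were followed over 24 libraries. In the lung, every one of the 10 had its lowest group mean in controls, and the means of both mutants were higher. C1qc and Ctsc passed the test in Cenpj mutant lung and C1qc in Ift88 mutant lung, while none of the 10 passed it in small intestine. Between lung libraries of the same group, Ctsc hardly moved with the 10 genes as a whole (r = 0.143). The number that passed in lung changed with the libraries and settings used, and most when lung control 4 was left out.

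Macrophages of the embryo arise from yolk sac and fetal liver progenitors and settle in each organ while it forms. They depend on signalling through the receptor encoded by Csf1r, they clear dying cells, and they carry out part of this work with the complement protein C1q and with lysosomal proteases. Whole organs were sequenced, so a higher value may come from more macrophages, from more RNA of a gene in each of them or from other cells. These cannot be told apart here.

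RNA was sequenced from whole lung and whole small intestine dissected from mouse embryos at E11.5, with 3 genotypes in each of 2 organs and 4 libraries in each of the 6 groups. All embryos carried Cre recombinase expressed from Shh (ShhCre), which acts in the epithelium of these organs and not in macrophages. Controls were ShhCre Cenpj+/lox, so that their epithelium retained a single functional Cenpj allele. Cenpj mutants were ShhCre Cenpj-/lox and lack in the epithelium a protein required for centriole assembly, and Ift88 mutants were ShhCre Ift88-/lox and lack there a protein required for cilia. Outside the epithelium each mutant carried a single null allele, and both mutants were compared with the same Cenpj+/lox controls, so the comparisons share their control libraries. The labels do not say whether libraries of a group came from different embryos, so each p-value sets a difference against the spread between these libraries only.

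Libraries held 96.1 to 120.88 M reads, recovered from the deposited normalized counts, and 21994 to 26529 detected genes. Low-count genes were most frequent at 12 to 42 reads each, depending on the library, searching from 6 reads upward. The number of independent molecules may therefore be lower than the number of reads, which was not tested. In 10 libraries, called ribosomal-rich here, 2519 to 14428 of every M reads fell on genes annotated as ribosomal RNA, against 297 to 1287 in the other 14. The ribosomal-rich libraries were all 8 Cenpj mutants, lung control 3 and intestine control 2. Organ identity followed the labels: the lung transcription factor gene Nkx2-1 reached 2977 to 15689 normalized counts in lung libraries and at most 14.2 in intestine, and the intestinal factor gene Cdx2 reached 534 to 3345 in intestine and at most 15.0 in lung. Cenpj averaged 3432.5 ± 820 (SD, n = 4) normalized counts in control lung and 2577 ± 340 in Cenpj mutant lung, and Ift88 averaged 2637 ± 309 in control lung and 1973 ± 319 in Ift88 mutant lung. All 10 macrophage genes were above 0 in all 24 libraries.

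The 3 C1q genes encode the A, B and C chains of C1q and lie side by side on chromosome 4 of GRCm38, all on the minus strand. C1qb spans 136880129 to 136886187, C1qc 136889804 to 136893065 and C1qa 136895917 to 136898803. The whole cluster covers 18675 bases, with 3616 bases between C1qb and C1qc and 2851 between C1qc and C1qa.

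Promoter windows of 6 of the 10 genes were available from RefSeq (GRCm38.p6), each running from 250 bases before to 50 bases after an annotated start site. For C1qb, C1qc and Cx3cr1 this site differs from the outer gene boundary given in this text, and for Ctsc it is the same. Those of C1qc and Ctsc are shown because these genes passed the test in lung, that of C1qb for the same gene cluster, and that of Cx3cr1 because its lung values differed least between genotypes. Sequences run 5′ to 3′ on the strand of the gene, and capitals mark GAGGAA or its reverse complement TTCCTC, the core bound by PU.1, the myeloid transcription factor encoded by Spi1.
C1qb (chr4:136886151-136886450, minus strand): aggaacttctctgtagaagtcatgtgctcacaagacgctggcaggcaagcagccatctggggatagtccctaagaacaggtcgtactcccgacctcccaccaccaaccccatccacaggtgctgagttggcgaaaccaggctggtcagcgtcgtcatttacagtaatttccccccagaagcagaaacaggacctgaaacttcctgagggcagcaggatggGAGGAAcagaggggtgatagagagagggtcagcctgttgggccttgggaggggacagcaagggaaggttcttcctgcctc
C1qc (chr4:136892865-136893164, minus strand): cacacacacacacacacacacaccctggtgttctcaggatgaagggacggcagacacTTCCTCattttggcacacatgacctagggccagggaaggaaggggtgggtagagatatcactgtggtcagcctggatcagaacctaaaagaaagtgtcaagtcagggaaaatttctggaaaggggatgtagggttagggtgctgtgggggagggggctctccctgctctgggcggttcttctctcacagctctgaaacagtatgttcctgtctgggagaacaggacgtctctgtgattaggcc
Ctsc (chr7:88277835-88278134, plus strand): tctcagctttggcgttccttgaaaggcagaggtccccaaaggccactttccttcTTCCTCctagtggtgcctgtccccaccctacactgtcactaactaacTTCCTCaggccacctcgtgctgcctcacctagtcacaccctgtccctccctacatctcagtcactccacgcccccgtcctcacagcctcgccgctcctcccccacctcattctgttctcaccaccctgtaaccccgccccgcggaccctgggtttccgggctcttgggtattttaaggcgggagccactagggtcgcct
Cx3cr1 (chr9:120068247-120068546, minus strand): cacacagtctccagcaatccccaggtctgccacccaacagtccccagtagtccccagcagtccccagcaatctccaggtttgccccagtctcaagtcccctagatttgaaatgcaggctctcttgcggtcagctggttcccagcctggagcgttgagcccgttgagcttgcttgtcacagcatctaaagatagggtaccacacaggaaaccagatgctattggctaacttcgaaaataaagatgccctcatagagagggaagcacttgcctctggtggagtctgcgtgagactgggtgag
GAGGAA, searched on both strands, occurred in 4 of the 6 windows (C1qb, C1qc, Mrc1 and Ctsc), and in 28.3% of the 32851 windows in the table. The match in C1qb began at position -30 from the start site of its window, that in C1qc at -193, and those in Ctsc at -196 and -149. Mrc1 held 3 matches, at -180, -167 and -35, and the windows of Fcer1g and Cx3cr1 held none. Searched the same way, TGANTCA and TATAAA occurred in none of the 6 windows, and in 7.81% and 13.6% of all windows. A match is a run of letters and is not evidence of binding.

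The other 7 genes lie elsewhere in GRCm38. Csf1r is on chromosome 18 (61105572 to 61132149), Mrc1 on chromosome 2 (14229392 to 14332057), Fcer1g on chromosome 1 (171229572 to 171234365) and Cx3cr1 on chromosome 9 (119901616 to 120069879). Tyrobp (30413760 to 30417585) and Ctsc (88278085 to 88310888) are both on chromosome 7, and Adgre1 is on chromosome 17 (57358686 to 57483529). The long span of Cx3cr1 comes from a single annotated transcript and runs over Wdr48, Gorasp1, Csrnp1, Xirp1 and Ttc21a, but no exonic base of these 5 genes is shared with Cx3cr1. Csf1r shares 873 exonic bases, 15.1% of its exonic length, with its neighbour Hmgxb3, and how reads there were assigned is not given in the sources used here.

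Levels of the 10 genes were compared with each other only per kilobase of annotated exon. In control lung, C1qb was the highest of the 10 with 1201 ± 409 normalized counts per kilobase (SD, n = 4), followed by C1qa with 843 ± 399. Tyrobp (670 ± 333 per kilobase), Fcer1g (656 ± 315) and C1qc (525 ± 162) came next. Mrc1 (391.6 ± 178 per kilobase), Csf1r (372 ± 129), Cx3cr1 (322 ± 20.01) and Ctsc (321 ± 33.6) formed a lower tier, and Adgre1 was last at 138 ± 105. In this order, the gap between each gene and the next was smaller than the SD of at least one of the pair, except for the step from Ctsc to Adgre1, so only the last place was set apart by more than the spread between libraries. C1qb was also highest per kilobase in each of the other 5 groups, from 1262 ± 294 in Ift88 mutant intestine to 1741 ± 189 in Cenpj mutant lung.

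C1qc gave the largest log2 difference of the 10 in Cenpj mutant lung. Normalized counts of C1qc in lung controls 1 to 4 were 746.5, 927, 913 and 1467. Cenpj mutant lungs 1 to 4 held 2019.0, 1846, 1709.5 and 1450.3, and Ift88 mutant lungs 1 to 4 held 1497, 1926, 1674 and 1658. Lung control 4 was the highest control and lay above the lowest Cenpj mutant lung, so these groups overlapped, whereas all Ift88 mutant lungs lay above all controls by a narrow margin. On the log2(value + 1) scale used for all differences here, C1qc was higher by 0.83 (SE 0.182, 95% interval 0.45 to 1.21) in Cenpj mutants, with a limma adjusted p of 0.0463. In Ift88 mutants it was higher by 0.78 (SE 0.182, 95% interval 0.40 to 1.158), with a limma adjusted p of 0.0440. These calls were not stable: the Cenpj call was lost in 17 of 21 alternatives and the Ift88 call in 16 of 21, both including edgeR, limma-voom, no filter, only the groups compared and leaving out any library but lung control 4. The other chains of C1q had values in the same direction that did not pass. The C1qa log2 difference was 0.76 (SE 0.224, limma adjusted p = 0.149) in Cenpj mutants and 0.59 (SE 0.224, adjusted p = 0.250) in Ift88 mutants. For C1qb it was 0.59 (SE 0.203, limma adjusted p = 0.226) and 0.42 (SE 0.203, adjusted p = 0.419), and without lung control 3 it was 0.39 and 0.21. C1qa ranged from 594 to 1489 normalized counts in control lung, 1160.3 to 1539 in Cenpj mutant lung and 1104 to 1312.5 in Ift88 mutant lung, and again lung control 4 held the control maximum.

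**Figure D1:**
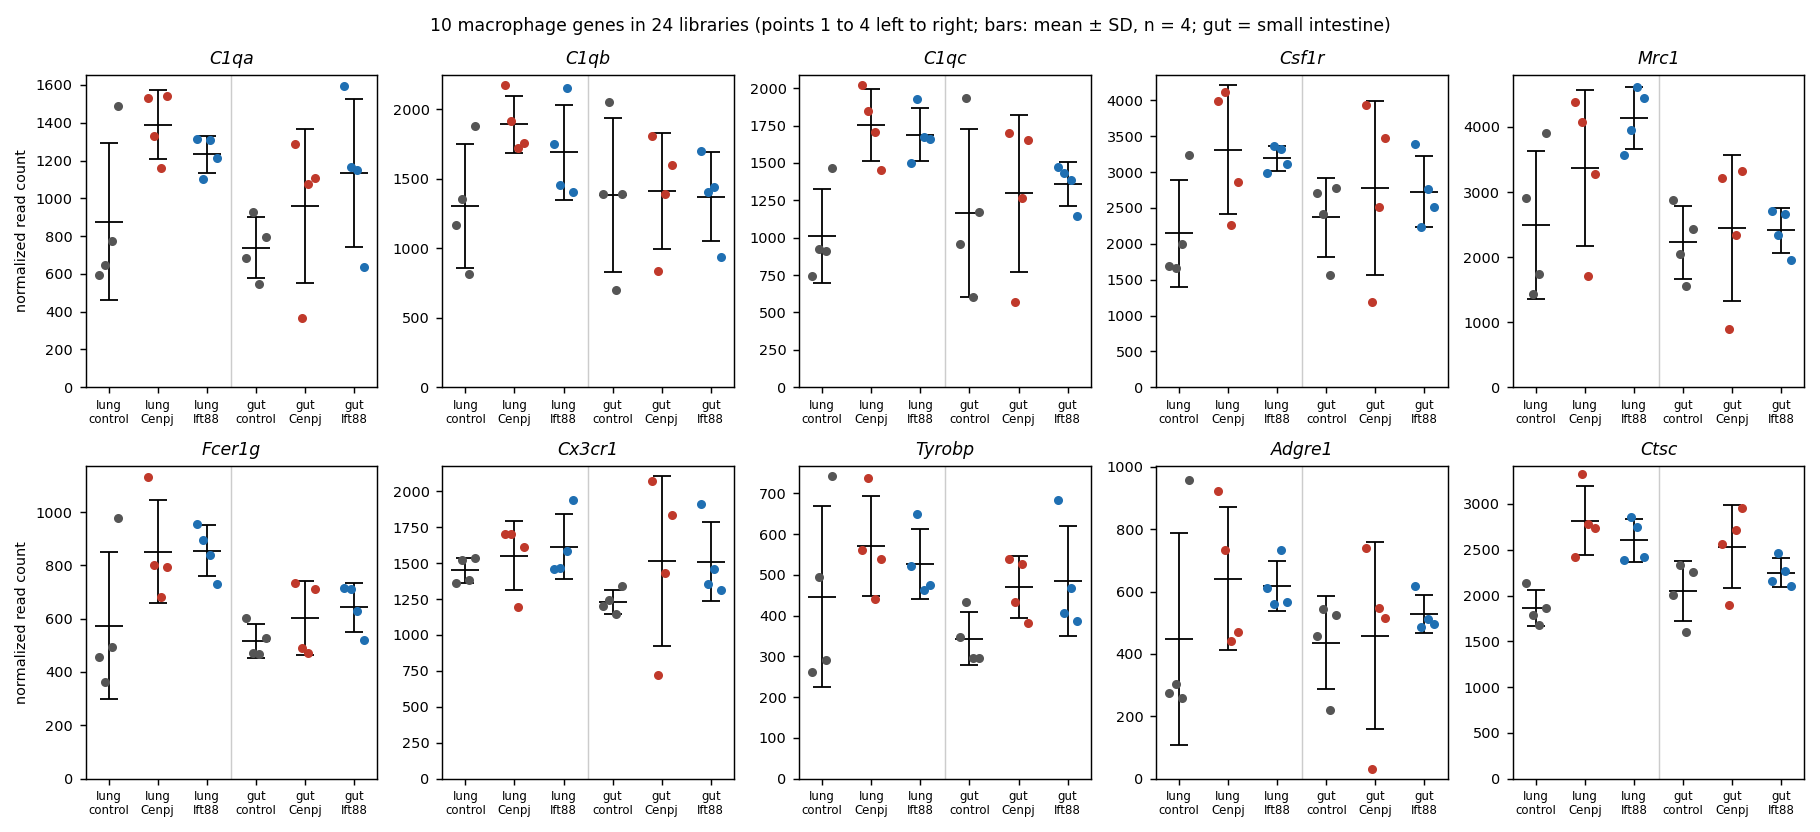
Normalized read counts (vertical axes) of the 10 genes in each library, grouped on the horizontal axes by organ and genotype, with small intestine labelled gut. Points are libraries and bars are the mean ± SD of 4; lung control 4 stands above the other lung controls for most genes, and intestine Cenpj mutant 2 lies lowest of its group for 8 of the 10.

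Ctsc encodes cathepsin C, a lysosomal dipeptidyl peptidase that activates serine proteases of granules, and it was the one gene of the 10 for which lung control 4 was not the highest control. Lung controls 1 to 4 held 2136, 1783, 1681 and 1864 normalized counts of Ctsc. Cenpj mutant lungs 1 to 4 held 2426.0, 3330.4, 2778 and 2737, and Ift88 mutant lungs 1 to 4 held 2389, 2855, 2750.1 and 2416. Neither mutant overlapped the controls. In deviations of lung libraries from their group means, Ctsc hardly followed the mean of the 10 genes (r = 0.143). That mean includes Ctsc itself. Ctsc rose by a log2 difference of 0.59 (SE 0.129, 95% interval 0.32 to 0.86) in Cenpj mutant lung, with a limma adjusted p of 0.0457, a call lost in 12 of 21 alternatives. In Ift88 mutant lung the difference was 0.48 (SE 0.129, 95% interval 0.21 to 0.75), which did not pass with a limma adjusted p of 0.0801. The authors' deposited table gives Ctsc folds of 1.51 (FDR 0.00262) for the Cenpj mutant and 1.39 (FDR 0.0208) for the Ift88 mutant against control lung. The authors' deposited table put C1qc at folds of 1.73 (FDR 0.0925) and 1.67 (FDR 0.124), so that Ctsc and not C1qc lay under an FDR of 0.05 there in both lung comparisons. In the authors' deposited table Ctsc was the 1 of the 10 under that FDR in each, where 5.66% and 6.08% of genes with an FDR were under it.

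Among the surface receptors, Csf1r encodes the receptor for the growth factors CSF1 and IL34, and Mrc1 encodes the mannose receptor CD206. Lung controls 1 to 4 held 1686, 1659, 2004 and 3239 normalized counts of Csf1r, Cenpj mutant lungs 3996.5, 4121, 2264 and 2857, and Ift88 mutant lungs 2993, 3359, 3318 and 3109.9. Without lung control 4 the groups would not have overlapped. The Csf1r log2 difference was 0.64 (SE 0.199, limma adjusted p = 0.175) in Cenpj mutants and 0.63 (SE 0.199, adjusted p = 0.149) in Ift88 mutants. Mrc1 in lung controls 1 to 4 was 2902, 1435, 1738 and 3905.0 normalized counts, in Cenpj mutants 4389, 4080.4, 1714.5 and 3276, and in Ift88 mutants 3561, 3946, 4614 and 4439. Its values were spread widely in controls and Cenpj mutants and closely grouped in Ift88 mutants. The Mrc1 log2 difference was 0.46 (SE 0.275, limma adjusted p = 0.550) in Cenpj mutants and 0.84 (SE 0.275, adjusted p = 0.167) in Ift88 mutants, the largest of the 10 there. The Cenpj difference of Mrc1 was 0.23 without lung control 2 and 0.75 without Cenpj mutant lung 3.

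Adgre1, which encodes the macrophage surface protein F4/80, and Cx3cr1, which encodes the receptor for the chemokine CX3CL1, were at the extremes of spread in control lung. Adgre1 held 273, 304, 259 and 957 normalized counts in lung controls 1 to 4, so that lung control 4 held over 3 times the value of any other control. Cenpj mutant lungs held 923, 733.5, 441 and 469.7 and Ift88 mutant lungs 610.3, 562, 733 and 567, all above the other 3 controls. The Adgre1 log2 differences of 0.69 (SE 0.349, limma adjusted p = 0.461) and 0.70 (SE 0.349, adjusted p = 0.435) did not pass. Cx3cr1 in contrast held 1363 to 1532.5 normalized counts in control lung, 1196 to 1705 in Cenpj mutants and 1459 to 1940.3 in Ift88 mutants. Its log2 difference was 0.088 (95% interval -0.23 to 0.40, limma adjusted p = 0.856) in Cenpj mutants and 0.15 (95% interval -0.17 to 0.46, adjusted p = 0.722) in Ift88 mutants. With a library left out these Cx3cr1 differences ranged from 0.038 to 0.21 and from 0.055 to 0.19.

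Fcer1g and Tyrobp encode the small adaptor proteins FcRγ and DAP12, through which Fc receptors and receptors such as TREM2 signal. Fcer1g ranged from 364.0 to 978.0 normalized counts in control lung, 680.1 to 1132 in Cenpj mutants and 729.7 to 955.0 in Ift88 mutants. Its log2 difference was 0.65 (SE 0.255, limma adjusted p = 0.312) in Cenpj mutants and 0.67 (SE 0.255, adjusted p = 0.250) in Ift88 mutants. Tyrobp ranged from 261 to 742 normalized counts in controls, 442 to 736 in Cenpj mutants and 462 to 649 in Ift88 mutants, so the mutant values lay inside the range of the controls. The Tyrobp log2 difference was 0.46 (SE 0.296, limma adjusted p = 0.591) and 0.35 (SE 0.296, adjusted p = 0.704). It was 0.24 and 0.14 without lung control 1, and 0.74 and 0.64 without lung control 4.

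**Figure D2:**
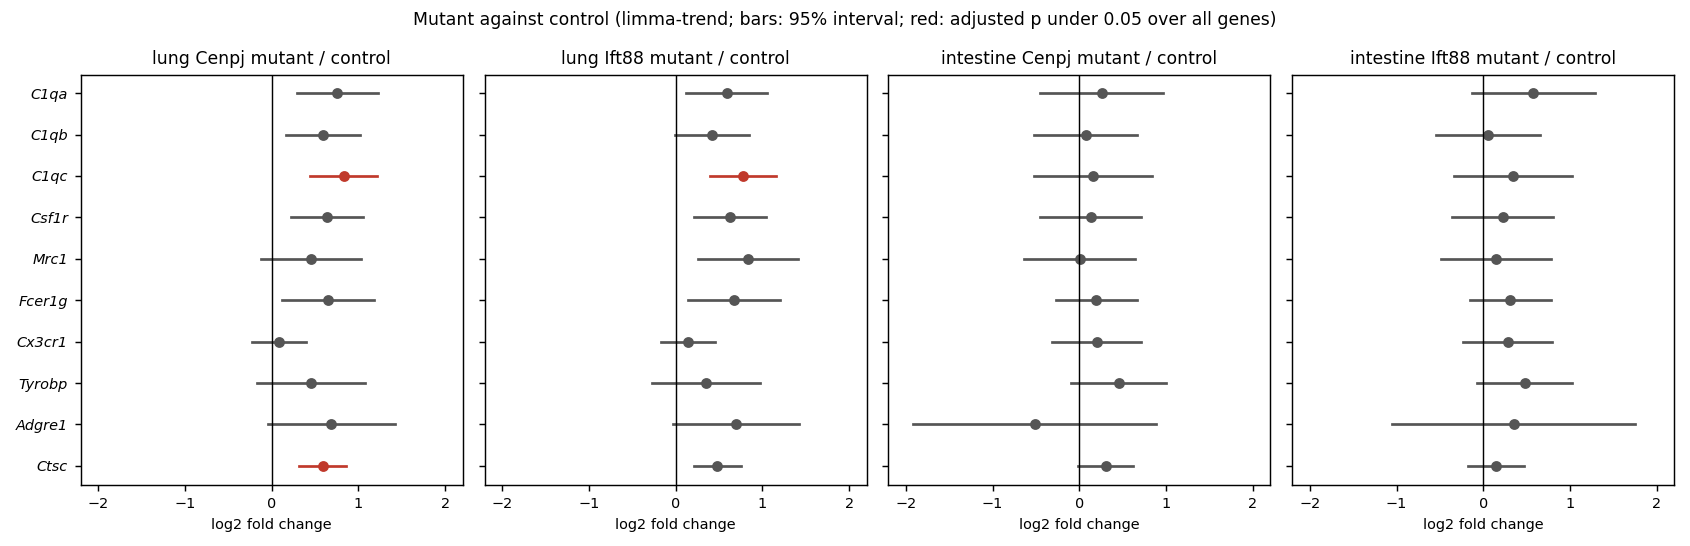
Log2 fold change (horizontal axes) of each gene in mutants against controls, by organ, from limma-trend; points are estimates, bars 95% intervals, and red marks an adjusted p under 0.05 over all genes. All 10 points lie above 0 in both lung comparisons, where C1qc and Ctsc are called in Cenpj mutants and C1qc in Ift88 mutants, and no gene is called in intestine.

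Counted over the group, 2 of the 10 rose in Cenpj mutant lung and none fell, where 0.513% of 31361 genes tested were called and 0.0797% were called higher. In Ift88 mutant lung 1 of the 10 rose, where 1.07% of genes were called and 0.437% called higher. The estimates were above 0 for 10 of 10 genes in both, with median log2 differences of 0.62 and 0.61, against a median of 0 over all genes tested. Of all genes tested, 47.5% and 49.7% were above 0. Because the 10 genes were chosen with earlier results of these data known, their contrast with all genes is a description only. The 10 genes moved together within groups (median pairwise r 0.64) and both comparisons share their controls, so these estimates are not independent. An unadjusted p under 0.05 was reached by 6 of the 10 in each, and by 3606 and 3837 of the 31361 genes tested. All 4 mutant lungs lay above all 4 controls for Ctsc in Cenpj mutants, where 2.68% of genes did so, and for C1qc and Ctsc in Ift88 mutants, where 3.19% did so. Between the mutants, Cenpj against Ift88 mutant lung, none of the 10 passed limma-trend, edgeR, DESeq2 or limma-voom, none reached an unadjusted p under 0.05, and 1.8% of genes were called. The widest log2 difference between the mutants was that of Mrc1, -0.38 in Cenpj against Ift88 mutants (95% interval -0.95 to 0.20), and it was -0.084 without Cenpj mutant lung 3.

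The count moved most with lung control 4, which held the highest control value for 9 of the 10 genes and a summed level over the 10 of 18058 normalized counts, against 10353 to 11586.5 in the other 3 lung controls. The summed level was 14110 to 20857 in Cenpj mutant lung and 17052 to 19437 in Ift88 mutant lung, so lung control 4 lay within the range of both mutants. Without it, 7 of the 10 passed in Cenpj mutants (C1qa, C1qb, C1qc, Csf1r, Fcer1g, Adgre1 and Ctsc) and 6 in Ift88 mutants (C1qa, C1qc, Csf1r, Mrc1, Fcer1g and Adgre1), while the number of genes called overall rose from 161 to 407 and from 335 to 995. The Adgre1 log2 difference became 1.13 in Cenpj mutants and 1.14 in Ift88 mutants, and that of C1qa 1.05 and 0.88. Leaving out any other library gave 0 or 1 of the 10 in Cenpj mutants and 0 in Ift88 mutants. Lung control 4 also held the highest summed level of 8 mesenchyme marker genes among lung controls, 594587 normalized counts against 385494 to 476401, and its part in the macrophage values was not tested. It was in the middle of the lung controls for 14 erythroid genes, 1027334 against 499458 to 1643309, and for 8 liver genes, 1551 against 357 to 5484.

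**Figure D3:**
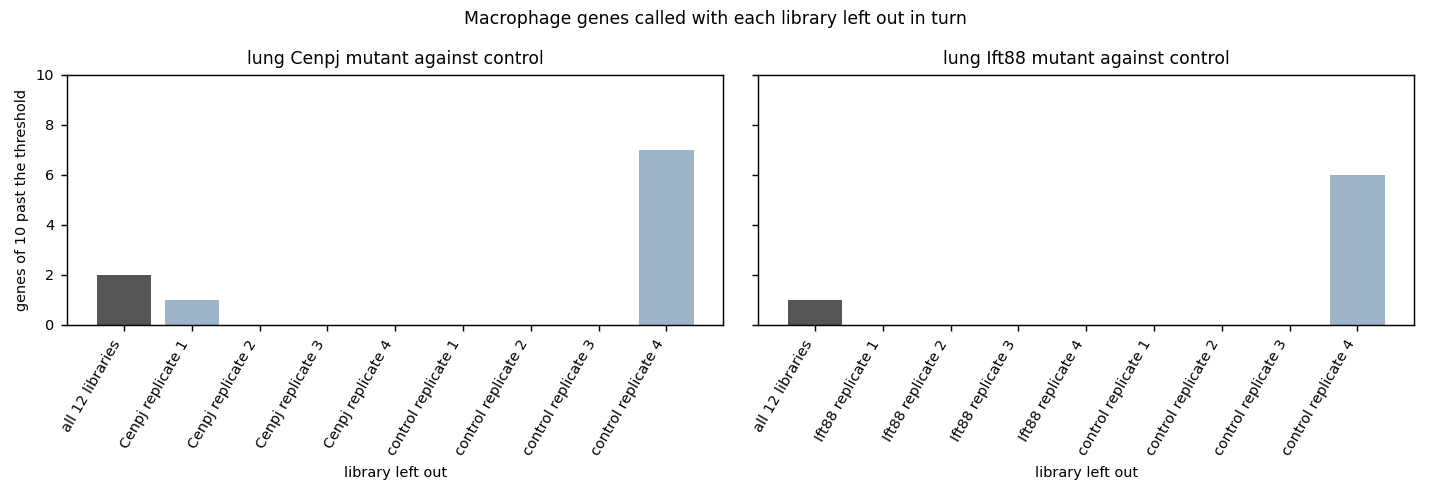
Number of the 10 genes past the threshold (vertical axes) with all 12 lung libraries and with each library of the comparison left out in turn (horizontal axes). The bars without control replicate 4 reach 7 in Cenpj mutants and 6 in Ift88 mutants, and all other bars with a library left out stand at 0 or 1.

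The kind of library moved with the Cenpj genotype, since all Cenpj mutant lungs and lung control 3 alone among lung controls were ribosomal-rich. Set against lung control 3, all 4 Cenpj mutant lungs were higher for 8 of the 10 genes, where 17.8% of genes were, and the exceptions were Mrc1 and Cx3cr1. A limma fit of these 5 libraries alone, in which the lone control is assumed to vary like the mutants, gave 10 of 10 estimates above 0 and called none of the 10 and 0 of 28961 genes. The C1qc log2 difference there was 0.93 (limma adjusted p = 0.214) and that of Ctsc 0.74 (adjusted p = 0.278). A fit over 24 libraries with a term for library kind left the C1qc log2 difference in Cenpj mutants at 0.45 (limma adjusted p = 0.779) and that of Ctsc at 0.56 (adjusted p = 0.265). For Ift88 mutants, which hold no ribosomal-rich library, the comparison without ribosomal-rich libraries leaves 3 controls, and there 10 of 10 estimates were above 0, from 0.12 to 0.74, and 0 of 10 passed, with 196 of 30174 genes called.

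In small intestine none of the 10 passed limma-trend in either mutant, nor edgeR, DESeq2 or limma-voom. In Cenpj mutants no gene of the whole table was called (0%), with 0 of the 10 and 1616 of 31592 genes at an unadjusted p under 0.05; DESeq2 called 54 genes, limma-voom 1 and edgeR 0. In Ift88 mutants 0.719% of genes were called, with 0 of the 10 at an unadjusted p under 0.05. Estimates were above 0 for 9 of 10 genes in Cenpj mutants (median log2 difference 0.18, against 0.0084 over all genes) and for 10 of 10 in Ift88 mutants (0.29, against 0.057). Of all genes tested, 51.1% and 55.4% were above 0. The Tyrobp log2 difference was 0.45 (95% interval -0.094 to 1.00) in Cenpj mutants and 0.48 (95% interval -0.069 to 1.02) in Ift88 mutants. That of C1qa was 0.25 (95% interval -0.45 to 0.96) and 0.57 (95% interval -0.14 to 1.28), and that of Ctsc 0.30 (95% interval -0.022 to 0.62) and 0.15 (95% interval -0.18 to 0.47). With a library left out, the C1qa difference ranged from 0.063 (without Cenpj mutant 1) to 0.67 (without Cenpj mutant 2) in Cenpj mutants and from 0.39 to 0.83 in Ift88 mutants. That of Ctsc was 0.19 and 0.031 without intestine control 3, and that of Tyrobp in Ift88 mutants to 0.30 without Ift88 mutant 1. Within the ribosomal-rich intestines, again with 1 control, 6 of 10 estimates were above 0 in Cenpj mutants and 0 of 28920 genes were called. With a library left out, 5 to 10 of the 10 estimates were above 0 in Cenpj mutants and 8 to 10 in Ift88 mutants. Cenpj against Ift88 mutant intestine gave no call among the 10 by limma-trend, edgeR, DESeq2 or limma-voom and none at an unadjusted p under 0.05, where 2.19% of genes were called.

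Adgre1 was the gene with a lower estimate in Cenpj mutant intestine, and that estimate came from a single library. Intestine controls 1 to 4 held 457, 543, 220.2 and 525 normalized counts of Adgre1. Cenpj mutant intestines 1 to 4 held 739, 32.1, 549 and 516, and Ift88 mutant intestines 617, 485, 511 and 497.0. The Adgre1 log2 difference of -0.51 (SE 0.667, limma adjusted p = 0.919) in Cenpj mutants was 0.53 without replicate 2, and 0.069 to 0.076 in edgeR and DESeq2 with it. In intestine Cenpj mutant 2 the reads of Adgre1 came to 1.17 times the read number at which low-count genes of that library peaked. The median over the 24 libraries was 28.4 times. The value may thus lie at the limit of detection, which was not tested.

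Intestine Cenpj mutant 2 was the lowest of its group for 8 of the 10 genes and the lowest of all 24 libraries for 6 of them, with a summed level of 7428 normalized counts against 14282 to 18587 in the other 3. Csf1r was at 1192 there and at 2513 to 3934 in the other 3, Mrc1 at 889.6 against 2341 to 3321, and Cx3cr1 at 722 against 1434.5 to 2074. Fcer1g at 490.7 and Tyrobp at 432 were inside the range of the other 3, which was 472 to 733 and 381.5 to 538. The same library held 43348 normalized counts summed over 8 liver genes, against 4466 to 5526 in the other 3, and what part liver tissue had in the macrophage values was not tested. Among intestine controls, replicate 3 was lowest for 9 of the 10, with a summed level of 8702 normalized counts against 13240 to 14392 in the other controls, and it held 10487 normalized counts over the liver genes against 3668 to 5622. In lung the liver sum was 14875 and 9847 in Cenpj mutants 3 and 4, against 290 and 770.5 in Cenpj mutants 2 and 1, and Cenpj mutant 3 held the lowest summed level of the macrophage genes in its group; the part of liver tissue there was not tested either.

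**Figure D4:**
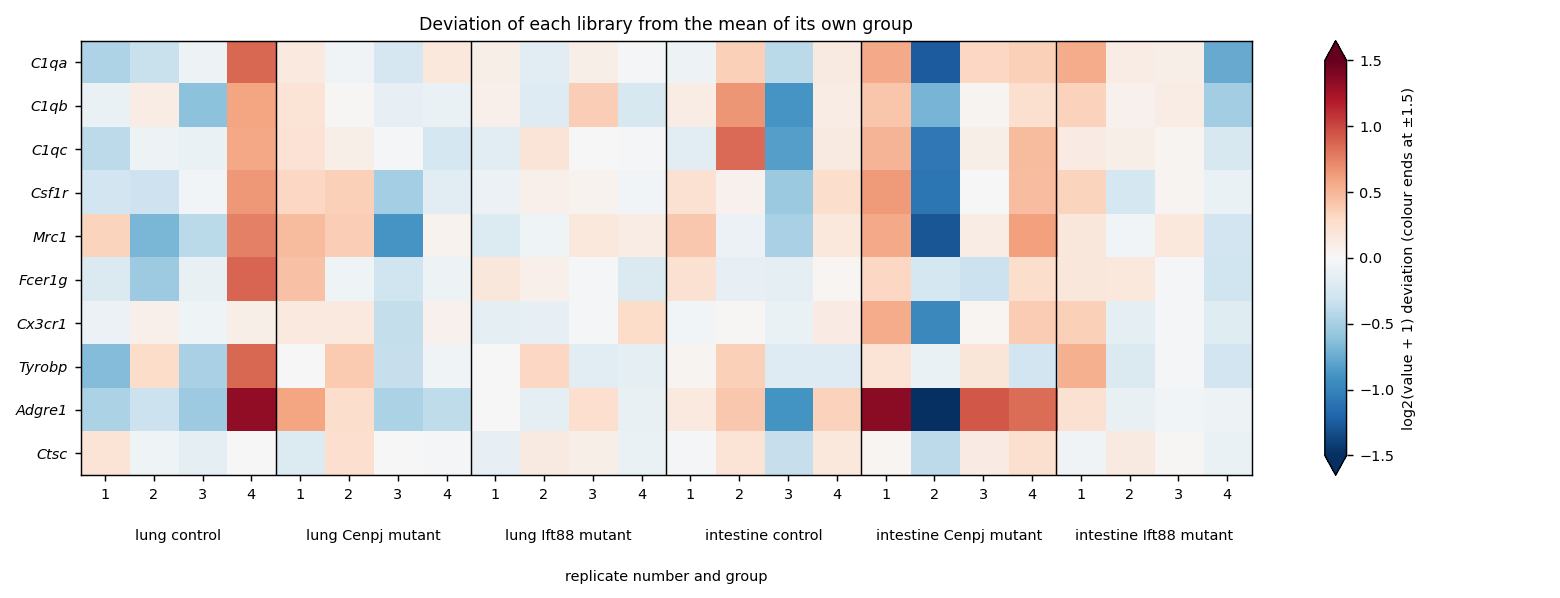
Deviation of each library (columns, by replicate number and group) from the mean of its own group for each gene (rows), on the log2(value + 1) scale given by colour. Lung control 4 is the highest of its group for 9 of the 10 genes, intestine Cenpj mutant 2 and intestine control 3 are low for most, and the 4 Ift88 mutant lungs differ little from each other.

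Between organs, none of the 10 genes was called in controls by limma-trend, edgeR, DESeq2 or limma-voom for control lung against control intestine, none reached an unadjusted p under 0.05, the median log2 difference was 0.0014, and 5 of 10 estimates were above 0, while 5.33% of 32098 genes were called. Without lung control 4, 1 of 10 estimates was above 0, and without intestine control 2, 8 of 10 were. Cx3cr1 was the exception in order: all 4 control lungs (1363 to 1532.5 normalized counts) lay above all 4 control intestines (1145 to 1337), as did 3.47% of genes, with a log2 difference of 0.24 (95% interval -0.20 to 0.67). In Cenpj mutants all 10 estimates were higher in lung (median log2 difference 0.49) and 0 of 10 passed, where 6.51% of genes were called, and 2 reached an unadjusted p under 0.05: C1qa (0.67, limma adjusted p = 0.257) and Fcer1g (0.50, adjusted p = 0.273). Without intestine Cenpj mutant 2 the C1qa difference was 0.26. In Ift88 mutants all 10 estimates were again higher in lung (median 0.23) and 0 of 10 passed, where 8.47% were called. Of all genes tested, 46.1% were higher in lung in Cenpj mutants and 45.9% in Ift88 mutants.

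In Ift88 mutants, Mrc1 gave the largest log2 difference between organs among the macrophage genes described here. Ift88 mutant lungs held 3561 to 4614 normalized counts and Ift88 mutant intestines 1961.0 to 2702, with no overlap, and C1qc and Fcer1g also did not overlap, where 6.01% of genes did so in this direction. The Mrc1 log2 difference in Ift88 mutants was 0.78 (SE 0.330, limma adjusted p = 0.176) in the fit over 24 libraries. It passed in a limma fit of these groups alone (adjusted p = 0.00033) and in no other alternative. In the fit over 24 libraries, Mrc1 in lung against intestine differed by 0.088 (SE 0.330, limma adjusted p = 0.993) in controls. In Cenpj mutants it differed by 0.54 (SE 0.330, limma adjusted p = 0.433). A difference between organs was thus not shown for Mrc1 in either of these groups.

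Whether the mutant effect differed between the organs was tested as an interaction. None of the 10 passed for either mutant by limma-trend, edgeR, DESeq2 or limma-voom, and none reached an unadjusted p under 0.05; over all genes 0% were called for the Cenpj effect and 0.0125% for the Ift88 effect. The estimate was above 0, larger in lung, for 9 of 10 genes with Cenpj and 8 of 10 with Ift88. Of all genes tested, 45.9% and 46.3% were above 0. For C1qc the effect in lung minus that in intestine was 0.67 (95% interval -0.16 to 1.51) for Cenpj and 0.44 (95% interval -0.39 to 1.27) for Ift88, and for Ctsc 0.29 (95% interval -0.12 to 0.70) and 0.34 (95% interval -0.070 to 0.74). With a library left out, the C1qc difference of effects ranged from 0.32 (without intestine Cenpj mutant 2) to 0.95 for Cenpj and from 0.16 (without intestine control 2) to 0.71 (without intestine control 3) for Ift88, and that of Ctsc for Cenpj from 0.16 (without intestine Cenpj mutant 2) to 0.40. A call in lung and none in intestine is therefore not shown to be a difference between the organs.

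Ordered by group mean, lung Cenpj mutants were highest for 7 of the 10 genes and lung Ift88 mutants for Mrc1, Fcer1g and Cx3cr1. The lowest mean was that of intestine controls for 6 genes and of lung controls for C1qb, C1qc, Csf1r and Ctsc. The highest group mean was 1.31 times the lowest for Cx3cr1, the narrowest range, and 1.88 times for C1qa, the widest.

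Within groups the genes moved together to different degrees, as a description over the deviations of 24 libraries from their group means. The 45 pairs of genes had a median Pearson r of 0.64, from 0.11 between Fcer1g and Ctsc to 0.90 between Csf1r and Adgre1. Csf1r (r = 0.925), Adgre1 (0.909) and C1qa (0.895) followed the mean of the other 9 most closely, and Fcer1g (0.603), Ctsc (0.538) and Tyrobp (0.476) least. Ctsc followed the members in intestine (r = 0.842 with the mean profile over 12 libraries) and hardly in lung (0.143). These points share libraries and their depth, and the profile includes each gene itself in the second measure.

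Of 18375 genes with a mean of 50 or more normalized counts, the non-members most like the mean profile were Emp3 (r = 0.944), Kdelr3 (0.934), Fcrls (0.893), F13a1 (0.880) and Anxa2 (0.878). Fcrls, an Fc receptor-like gene, and F13a1, encoding the A subunit of coagulation factor XIII, are known from macrophages. Emp3, a membrane protein gene, Kdelr3, a receptor gene for retrieval to the endoplasmic reticulum, and Anxa2, encoding annexin A2, are expressed in many cell types. Emp3 ranked above all 10 members, of which Csf1r was at rank 2 and Tyrobp at rank 753.

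Few genes of the related lists passed the test. Among 14 macrophage transcription factors none passed in Cenpj mutant lung. Of these, Id3 and Zeb2 differed by 0.15 and 0.095 there, and Spi1, which encodes PU.1, differed by 0.084 (SE 0.279, limma adjusted p = 0.955). In Ift88 mutant lung Ikzf1, a factor of lymphoid and other blood cells, fell by 1.07 (limma adjusted p = 0.0492) and no other factor passed. Estimates of these factors were above 0 for 8 of 14 in Ift88 mutant lung (median 0.052) and 11 of 14 in Cenpj mutant lung (median 0.17). None of 9 genes for ligands of macrophage receptors passed in either mutant in either organ. Csf1 differed by 0.028 in Cenpj and 0.35 in Ift88 mutant lung, and Cxcl12, a chemokine gene, by 0.24 and -0.056. None of the 16 genes of Fc receptor and Tyrobp signalling passed in any of the 4 comparisons of mutants with controls, although 16 of 16 estimates were above 0 in Cenpj mutant lung (median 0.26) and 6 of 16 in Ift88 mutant lung (median -0.077). Sirpa, an inhibitory receptor gene, and Syk, the kinase gene downstream of both adaptors, differed by 0.0019 and 0.096 in Cenpj mutant lung.

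Among 24 other macrophage surface receptor genes none passed in Cenpj mutant lung, while in Ift88 mutant lung Lyve1, a hyaluronan receptor of lymphatic endothelium and of a class of macrophages, rose and Csf2rb, the shared receptor subunit for IL3, IL5 and GM-CSF, fell. Lyve1 was at 245 to 1138.5 normalized counts in control lung and 2249 to 2632 in Ift88 mutant lung, a log2 difference of 2.17 (SE 0.427, limma adjusted p = 0.0174). Csf2rb fell by 1.95 (SE 0.404, limma adjusted p = 0.0227) in Ift88 mutant lung and fell by 2.01 (SE 0.405, adjusted p = 0.0320) in Ift88 mutant intestine. The list as a whole was split. Above 0 were 15 of 24 estimates in Ift88 mutant lung (median 0.22) and 14 of the 22 tested in Ift88 mutant intestine (median 0.12). None of 25 other macrophage cytoplasmic and secreted genes passed in the 4 comparisons; Lcp1, which encodes the actin-bundling protein L-plastin, differed by 0.47 (limma adjusted p = 0.129) in lungs of Cenpj mutants and -0.028 in those of Ift88 mutants. Cyba, encoding a subunit of the phagocyte oxidase, differed by 0.18 and 0.16.

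Of 12 other cathepsin genes, only Ctsd, encoding the aspartic protease cathepsin D, passed in Cenpj mutant lung, at 0.45 (SE 0.1001, limma adjusted p = 0.0495), and none passed in the other 3 comparisons. Cathepsin estimates were above 0 for 10 of 12 genes in Cenpj mutant lung (median 0.26) and 11 of 12 in Ift88 mutant lung (median 0.27). Summed over the 12, Cenpj mutant lungs held 61483 to 66445 normalized counts and Ift88 mutant lungs 56517 to 61825, against 48485 to 55960 in controls. Of 21 lysosomal hydrolase and membrane genes, Glb1, encoding β-galactosidase, rose in Cenpj mutant lung by 0.49 (SE 0.105, limma adjusted p = 0.0414). Of 19 genes for the uptake of dying cells, Gas6, encoding a bridging ligand of the receptors Tyro3, Axl and Mertk, rose in Ift88 mutant lung by 1.30 (SE 0.290, limma adjusted p = 0.0343). Of 17 other complement genes, Serping1, encoding the C1 inhibitor, rose in Ift88 mutant intestine by 0.61 (SE 0.134, limma adjusted p = 0.0418).

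Markers of other cell types moved in some of these comparisons, and their part in the macrophage values was not tested. In Ift88 mutant lung 6 of 14 erythroid genes fell, with summed levels of 255670 to 416611 normalized counts against 499458 to 1643309 in controls, and 2 of 12 blood endothelial genes (Pecam1 and Esam) rose. There the megakaryocyte gene Gfi1b fell, with 0 of 8 megakaryocyte estimates above 0 (median -1.09). The heart muscle gene Actc1 and the lung epithelial gene Sftpc rose there, but their lists were split. Above 0 were 3 of 8 heart muscle estimates (median -0.052) and 5 of 8 lung epithelial estimates (median 0.28). In Ift88 mutant intestine 3 of 14 erythroid genes and the lung epithelial gene Etv5 fell, and the mesenchyme gene Dcn rose. The lung epithelial and mesenchyme lists were split there, each with 4 of 8 estimates above 0. In Cenpj mutant lung 1 of 8 mesenchyme genes (Vim) rose, with 4 of 8 mesenchyme estimates above 0 (median -0.033), and none of the erythroid or endothelial genes passed. Megakaryocyte estimates were above 0 for 8 of 8 genes in Cenpj mutant lung (median 0.40), and none passed. Neutrophil and monocyte granule genes were low in all lung groups, with summed levels over 12 genes of 982 to 1622 normalized counts in controls, 873 to 1364 in Cenpj mutants and 808 to 1285 in Ift88 mutants. Of these 12 genes, 2 were at 0 in all control lungs and 1 in each mutant group. Their median log2 difference was -0.094 in Cenpj mutant lung (5 of 12 above 0) and 1.30 in Ift88 mutant lung (7 of 12 above 0). None of the 12 passed in either. Mast cell genes, which bear on Fcer1g, summed to 722 to 1516 normalized counts over 7 genes in control lung, 879 to 1285 in Cenpj mutants and 978 to 1682 in Ift88 mutants, with 3, 3 and 2 genes at 0 throughout.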

How the data were processed

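RNA-seq values came from 1 deposited table of 55536 genes and 24 libraries. Per the file headers, its values are normalized counts; as a signal, each is a read count divided by a library factor, and the deposited values carry 1 decimal. Linear fold (ratio) and p-value columns, with FDR, hold the authors' own comparisons, per the file headers. STAR 2.5.2b and DESeq2 1.16.1 are listed, with GRCm38 and mm10, per the submitters' processing notes. Which tool counted reads, and with which strand option, was not given in the sources used here.

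The main test was limma-trend (limma 3.58.1, R 4.3.3) on log2 normalized counts with a pseudocount of 1. Genes needed a mean of at least 1 in the libraries of the fit, and all 10 members passed. Benjamini-Hochberg adjustment ran over all genes, with a threshold of 0.05. Comparisons within an organ used its 12 libraries; comparisons between organs and interactions used all 24. The depth came from whole reads: all values up to 500 were whole multiples of a step within 0.051, in 20 libraries with a clear step and in 4 whose step was too near 1 to tell from rounding. These reads also served edgeR 4.0.16, DESeq2 1.42.0 and limma-voom as alternatives. No pair of libraries in a group agreed within sampling noise (chi-square per degree of freedom 2.49 to 15.6 over 36 pairs). Intervals cover the spread between libraries. Exon lengths are from GENCODE on GRCm38.

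The 23 lists, counting that of the 10 genes, were chosen with earlier results of these data known. Of their 281 entries, 277 were in the table. All 10 members are named. From each list the rule took up to 4 genes with the smallest p among those that passed, or, with fewer than 2 such genes, those 2 whose mean normalized count (not corrected for length) was largest, and from the whole table the 5 genes most like the members. Some of these are left out for length, and Spi1, Csf1 and the organ markers are named for their roles. The values printed beyond mutant against control (Mrc1, C1qa, Fcer1g and Cx3cr1 between groups, C1qc and Ctsc in the interactions) were chosen after they were seen. Library kinds (over 2000 ribosomal reads per M reads) were set with earlier results known. Alternatives were other pseudocounts, filters, samples in the fit, tools, a replicate block, a term for library kind and leaving out each library; fits within 1 library kind were added after the data were seen. Figures used Python 3.11.15.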

Additional observations from a re-analysis of the deposited data

Results flagged for a closer look

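In 4 of the 60 sets of 4 libraries (10 genes in 6 groups), 1 library stood apart from the other 3 by more than Dixon's 95% critical value for the gap to the nearest library over the whole range, on the log2(value + 1) scale. Chance flags about 1 in 20 sets, and 6.67% were flagged. Adgre1 in intestine Cenpj mutant 2, at 32.1 normalized counts, had a gap of 0.884 of the range, and C1qa in the same library, at 365 normalized counts, had a gap of 0.858. Adgre1 in lung control 4, at 957 normalized counts, had a gap of 0.878 above the other controls. Cx3cr1 in lung Cenpj mutant 3, at 1196 normalized counts, had a gap of 0.838 below the other Cenpj mutant lungs. None of the 10 genes passed the test for a mutant effect that differs between lung and intestine.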

How the results depend on the processing

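In both lung comparisons of mutants with controls, all 10 log2 differences were above 0 in every alternative run, but the calls were less stable. In Cenpj mutant lung 2 of the 10 were called with a pseudocount of 0.5, a CPM filter or DESeq2. The count was 1 with a pseudocount of 0.1, all 24 libraries, edgeR with TMM or edgeR with DESeq2-type factors, each calling Ctsc. It was 0 with no filter, with the replicate block, with only the groups compared, with the library kind term, in limma-voom and in the ribosomal-rich libraries alone, and 0 to 7 with a library left out. In Ift88 mutant lung 1 was called with a pseudocount of 0.5, a CPM filter or the replicate block, and 2 (C1qc and Ctsc) by DESeq2. The count was 0 with a pseudocount of 0.1, no filter, only the groups compared, all 24 libraries, the library kind term, edgeR with TMM, edgeR with DESeq2-type factors, limma-voom and without ribosomal-rich libraries, and 0 to 6 with a library left out. Between the organs in Ift88 mutants 1 (Mrc1) was called with only the groups compared, and no other alternative called any of the 10 there or in the remaining 8 comparisons. Why the counts moved was not tested.

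In Cenpj mutant intestine the log2 difference of C1qc was -0.22 with the library kind term, in the ribosomal-rich libraries alone (chosen after seeing the data) C1qa was at -0.098, C1qb at -0.60 and C1qc at -0.70, and that of Adgre1 was 0.076 with edgeR and TMM, 0.070 with DESeq2-type factors and 0.069 in DESeq2. With a library left out it ranged from -0.12 to 0.51 for C1qc, -0.97 to 0.53 for Adgre1, -0.22 to 0.30 for C1qb, -0.081 to 0.49 for Csf1r and -0.20 to 0.43 for Mrc1. In Ift88 mutant intestine C1qb was at -0.010 with edgeR and TMM, -0.022 with DESeq2-type factors and -0.022 in DESeq2, and with a library left out it ranged from -0.24 to 0.28, and Mrc1 from -0.018 to 0.28. The other differences of the 10 genes between mutants and controls kept their sign. Over all genes, the count called was 161 in Cenpj mutant lung and 36 to 407 with a library left out, 69 with only the groups compared, 83 with the kind term, 86 with no filter, 0 in the ribosomal-rich libraries alone and 754 in DESeq2. In Ift88 mutant lung it was 335, and 52 to 995, 150 with no filter, 196 without ribosomal-rich libraries, 506 with the block and 972 in DESeq2. In Ift88 mutant intestine it was 227, and 25 to 1027 with a library left out, 69 with no filter, 368 in limma-voom, 527 with all 24 libraries, 545 with the block and 1015 in DESeq2; in Cenpj mutant intestine it was 0, and 0 to 37, 3 with all 24 libraries, 54 in DESeq2 and 85 with the kind term. Between the mutants it was 563 in lung, 36 with the kind term and 1105 in DESeq2, and 692 in intestine, 22 with the kind term and 1855 in DESeq2. For the interactions DESeq2 called 44 genes against 0 for Cenpj and 194 against 4 for Ift88, and the counts between organs stayed within 1.5 times. Same-numbered libraries of control lung and control intestine correlated, in deviations from group means, at 0.24 to 0.51 over genes with a mean of 1000 or more, 0.051 to 0.16 at 50 or more and -0.013 to 0.036 at 1 or more. Controls and Cenpj mutants of intestine did so at 0.15 to 0.36, 0.085 to 0.20 and 0.035 to 0.051. Whether the numbers pair libraries therefore depends on the genes used, which were tried after the counts with the block were seen. The block called 0 of the 10 in Cenpj and 1 in Ift88 mutant lung and changed no other call. Adgre1 and Tyrobp had the lowest depth of the 10, with medians of 28.4 and 24.1 times the read number at which low-count genes peaked.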
